A study of Mus musculus with 6 samples.

Results

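Interferon regulatory factors, a STAT and interferon receptors were examined in C2C12 cells, a mouse myoblast line, on day 5 of differentiation. The 9 genes, *Ifnar1*, *Ifnar2*, *Ifngr1*, *Stat2*, *Irf1*, *Irf3*, *Irf5*, *Irf7* and *Irf9*, were taken by name from the 23231 genes with counts. All 9 were counted in every library and passed the low-count filter. RNA-Seq covered 3 libraries of dCas9-KRAB cells and 3 libraries of dCas9-KRAB-En5 cells. The controls share with the targeted cells the lentivirus (multiplicity of infection 100), the puromycin selection (2 μg/ml), the 2% horse serum and the repressor. dCas9-KRAB is a nuclease-dead Cas9 fused to a repressor domain. The dCas9-KRAB group carried no enhancer sgRNA, and the dCas9-KRAB-En5 group carried sgRNAs against Myog-En5, an enhancer of *Myog*. The cells were selected pools, no untransduced library was examined, and the labels do not say whether replicates came from separate cultures, so p-values measure the spread between these libraries.

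Type I interferons bind a receptor of the chains IFNAR1 and IFNAR2, and interferon gamma binds a receptor that contains IFNGR1. Type I signalling brings STAT2 and IRF9 together in the factor ISGF3, which binds the interferon-stimulated response element (ISRE) of effector genes. IRF3, IRF5 and IRF7 are activated downstream of sensors of foreign nucleic acid and switch on interferon genes, IRF7 is itself induced by ISGF3, and IRF1 is induced by interferon gamma through a gamma-activated site (GAS). The question was whether these sensing and signalling genes were lower in dCas9-KRAB-En5 cells in the way that the effectors of interferon were.

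*Irf7* and *Irf9* fell in dCas9-KRAB-En5 cells, 7.78-fold and 4.38-fold, and no member was called higher. *Irf1*, *Irf3* and *Stat2* had lower estimates that did not pass the test, *Irf5* had an estimate near zero, and the 3 receptor chains had estimates above zero that did not pass it. Calls required a Benjamini-Hochberg adjusted p no larger than 0.01 in edgeR's quasi-likelihood test together with a log2 fold change, dCas9-KRAB-En5 over dCas9-KRAB, of 1 or more in size. By this rule 2 of the 9 members were lower, where 4.67% of the 14378 genes tested were lower, and 0 of the 9 were higher, where 1.52% of all genes were (219 genes, and 567 when blocked by replicate number). At an unadjusted p under 0.05, *Ifnar1* was the only member with a higher estimate, and DESeq2 also called none higher. In 3 of the 9 members, all TPM (a transcript abundance, counts per gene length scaled to the same sum in each library) of dCas9-KRAB-En5 lay below all of dCas9-KRAB, as in 19.7% of all genes tested. In none did they lie above, as in 7.76% of all genes. Values below are listed in the order of replicates 1, 2 and 3 of each group.

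The libraries held 31831093 to 73988425 counts. Ribosomal protein genes took 10.8% to 25.8% of them, most in dCas9-KRAB-En5 replicate 3, which listed 13991 genes against 17084 to 19395 elsewhere, and next most in dCas9-KRAB replicate 1. *Myog*, whose enhancer was targeted, was counted 43211, 68488 and 74845 times in the controls and 12, 0 and 0 times after targeting. The labelled cell type was not met by its markers in dCas9-KRAB-En5 cells, where 13 skeletal muscle genes summed to 12.3 to 20.9 TPM against 14317 to 17537 TPM in dCas9-KRAB cells. All 13 had a negative log2 fold change. Among them were the myogenic regulatory factors *Myod1*, with means of 74.5 TPM in dCas9-KRAB and 0.036 TPM in dCas9-KRAB-En5, and *Myf5*, with 3.17 and 0.026 TPM. Cell type and state of differentiation were not told apart. Macrophage markers were present in every library. Of 16 such genes, 9 reached 10 TPM in all libraries. The list summed to 6568 to 8671 TPM in dCas9-KRAB and to 13608 to 21605 TPM in dCas9-KRAB-En5. *Lyz2* was the largest single part of these sums, with means of 3173 and 10384 TPM, and was not called (edgeR adjusted p = 0.0869). Of the same list *C1qa*, *C1qb* and *C1qc* stayed at or below 0.98 TPM and were at 0 in some libraries. Of the 14 macrophage markers tested, 9 had a log2 fold change above 0 and 5 below. Of them 0 were called lower and 1 higher, where 4.67% and 1.52% of all genes tested were. The marker called higher was *Adgre1*, with a log2 fold change of 2.68. Myeloid cells express most members of this family, and the part of these markers in the results was not tested. In bulk RNA, fewer cells of a type and less RNA per cell cannot be told apart.

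Promoter windows of the members are shown because the pathway is known to feed back on several of its own genes. The RefSeq table for GRCm38.p6 held windows for all 9, from 250 bases before to 50 bases after an annotated start. Windows of *Irf7* and *Irf9*, the genes that fell, are given with those of *Irf1* and *Stat2*. Capitals mark a match to the ISRE core GAAANNGAAA or to the GAS core TTCNNNGAA, both searched on both strands. The windows lie at chr7:141266375-141266674 on the minus strand for *Irf7*, chr14:55603735-55604034 on the plus strand for *Irf9*, chr11:53769764-53770063 on the plus strand for *Irf1* and chr10:128270248-128270547 on the plus strand for *Stat2*, each printed along the gene's own strand.
Irf7: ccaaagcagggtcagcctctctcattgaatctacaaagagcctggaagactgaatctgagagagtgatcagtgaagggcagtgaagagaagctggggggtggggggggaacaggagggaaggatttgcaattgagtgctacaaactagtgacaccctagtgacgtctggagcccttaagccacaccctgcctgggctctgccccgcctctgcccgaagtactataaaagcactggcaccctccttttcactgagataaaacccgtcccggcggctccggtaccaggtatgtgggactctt
Irf9: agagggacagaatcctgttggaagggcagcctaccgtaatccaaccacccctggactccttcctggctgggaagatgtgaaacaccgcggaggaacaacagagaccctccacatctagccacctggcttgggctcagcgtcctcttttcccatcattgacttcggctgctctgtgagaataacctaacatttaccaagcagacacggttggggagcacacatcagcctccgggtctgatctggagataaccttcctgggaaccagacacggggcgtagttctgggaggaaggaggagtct
Irf1: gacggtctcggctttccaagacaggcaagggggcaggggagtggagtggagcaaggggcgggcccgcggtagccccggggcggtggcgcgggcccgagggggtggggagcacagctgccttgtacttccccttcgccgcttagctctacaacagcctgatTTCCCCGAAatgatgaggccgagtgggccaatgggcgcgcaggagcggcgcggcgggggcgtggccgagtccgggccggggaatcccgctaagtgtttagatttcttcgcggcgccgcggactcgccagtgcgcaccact
Stat2: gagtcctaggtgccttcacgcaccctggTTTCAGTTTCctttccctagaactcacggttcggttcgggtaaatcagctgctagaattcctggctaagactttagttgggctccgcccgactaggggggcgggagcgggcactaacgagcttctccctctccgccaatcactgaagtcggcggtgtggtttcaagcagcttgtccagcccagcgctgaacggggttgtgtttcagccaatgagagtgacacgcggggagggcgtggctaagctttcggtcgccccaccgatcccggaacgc

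The *Irf1* window held TTCCCCGAA, a GAS core that begins 90 bases before the start. In *Stat2* an ISRE core, TTTCAGTTTC read from the opposite strand, begins 222 bases before the start. Neither core was found in the windows of *Irf7*, *Irf9* (nor in its other window), *Irf3*, *Irf5* or *Ifngr1*, which says only that these letters are not in those 300 bases. A GAS core was also present in *Ifnar1* and *Ifnar2*. The ISRE core thus occurred in 1 of 9 members against 3.99% of the 27025 genes with a window, and the GAS core in 3 of 9 against 9.55%. Among the 32 interferon effectors with a window, 18 held the ISRE core and 12 the GAS core. A match is a description of letters and no evidence of binding.

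*Irf7*, the interferon-induced amplifier of type I interferon production, was the most abundant member in dCas9-KRAB cells. Its gene spans 141262706 to 141266481 on chromosome 7 of GRCm38, minus strand. The dCas9-KRAB libraries had 232, 630 and 589 TPM, and the dCas9-KRAB-En5 libraries 44.4, 93.6 and 57.3 TPM. The highest dCas9-KRAB-En5 library lay under the lowest dCas9-KRAB library, which was replicate 1. This gave a log2 fold change of -2.96 ± 0.595 (standard error, n = 3 per group, edgeR adjusted p = 0.00714). The counts behind it were 23807 to 99685 in dCas9-KRAB and 3552 to 5990 in dCas9-KRAB-En5. Leaving out any library but dCas9-KRAB-En5 replicate 3 ended the call with the direction kept, at edgeR adjusted p values up to 0.0387, and over all alternatives the adjusted p ran from 4.83e-06 to 0.0387. *Phrf1*, whose exons overlap *Irf7* on the opposite strand, had 433 to 3090 counts, and whether reads were counted by strand is not given in the sources used here.

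*Irf9*, the DNA-binding subunit of ISGF3, had the smallest relative spread of all members in the controls. Its gene spans 55603571 to 55610030 on chromosome 14, plus strand. Its level was 40.2, 43.9 and 45.5 TPM in the dCas9-KRAB libraries and 11.1, 14.9 and 7.49 TPM in the dCas9-KRAB-En5 libraries. Every dCas9-KRAB-En5 library was below every dCas9-KRAB library, by a gap wider than the range within either group. The fitted difference was -2.13 ± 0.43 on the log2 scale (standard error, edgeR adjusted p = 0.00731). As with *Irf7*, the call was lost without any 1 of the 5 libraries other than dCas9-KRAB-En5 replicate 3, and the adjusted p ran from 3.25e-05 to 0.0497 over all alternatives. Its exons overlap those of *Rnf31* on the same strand, which had 1143 to 8154 counts.

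*Irf3* is the constitutively expressed factor that responds first to nucleic acid sensing. Its gene spans 44997648 to 45002848 on chromosome 7, plus strand, with exons of *Bcl2l12* (55 to 593 counts) overlapping on the opposite strand. Controls had 37.3, 46.4 and 46.0 TPM of *Irf3*, and dCas9-KRAB-En5 libraries had 11.2, 14.8 and 25.3 TPM. The groups did not overlap, and dCas9-KRAB-En5 replicate 3 was the nearest to the controls. At -1.16 ± 0.604 on the log2 scale (standard error, edgeR adjusted p = 0.207), it was not called. Without dCas9-KRAB-En5 replicate 3 this difference was -2.37 (edgeR adjusted p = 0.000922), and 3 of 9 members were then called lower where 14.0% of all genes were.

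*Irf1*, an early interferon gamma target at 53770014 to 53778374 on chromosome 11, plus strand, had 12.1, 29.0 and 25.0 TPM in the controls. The dCas9-KRAB-En5 libraries had 11.2, 14.4 and 4.07 TPM. The groups overlapped because dCas9-KRAB replicate 1 lay within the dCas9-KRAB-En5 range. Its log2 fold change of -1.44 ± 0.449 (standard error) missed the cutoff of 0.01 with an edgeR adjusted p of 0.0467.

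*Irf5*, a myeloid-enriched factor of inflammatory cytokine induction, lies at 29526625 to 29541871 on chromosome 6, plus strand, and overlaps exons of *Tnpo3* (296 to 1645 counts) on the opposite strand. *Irf5* measured 20.8, 82.3 and 69.9 TPM in the controls and 83.7, 88.9 and 28.5 TPM in the dCas9-KRAB-En5 libraries. Both groups held 1 low library, replicate 1 of the controls and replicate 3 of the dCas9-KRAB-En5 group. The estimate was -0.05 ± 0.513 on the log2 scale (standard error, edgeR adjusted p = 0.960). Its sign turned under 7 of 18 alternatives, among them the changed call cutoff, under which no estimate can change.

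*Stat2*, the STAT particular to type I and type III interferon, at 128270559 to 128292849 on chromosome 10, plus strand, had 8.38, 35.6 and 17.1 TPM in the controls. In dCas9-KRAB-En5 libraries it had 10.4, 23.5 and 3.46 TPM, so the groups overlapped widely. Its log2 fold change of -1.06 ± 0.558 (standard error, edgeR adjusted p = 0.211) was not called. Replicate 2 was the highest library in both groups.

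**Figure D1:**
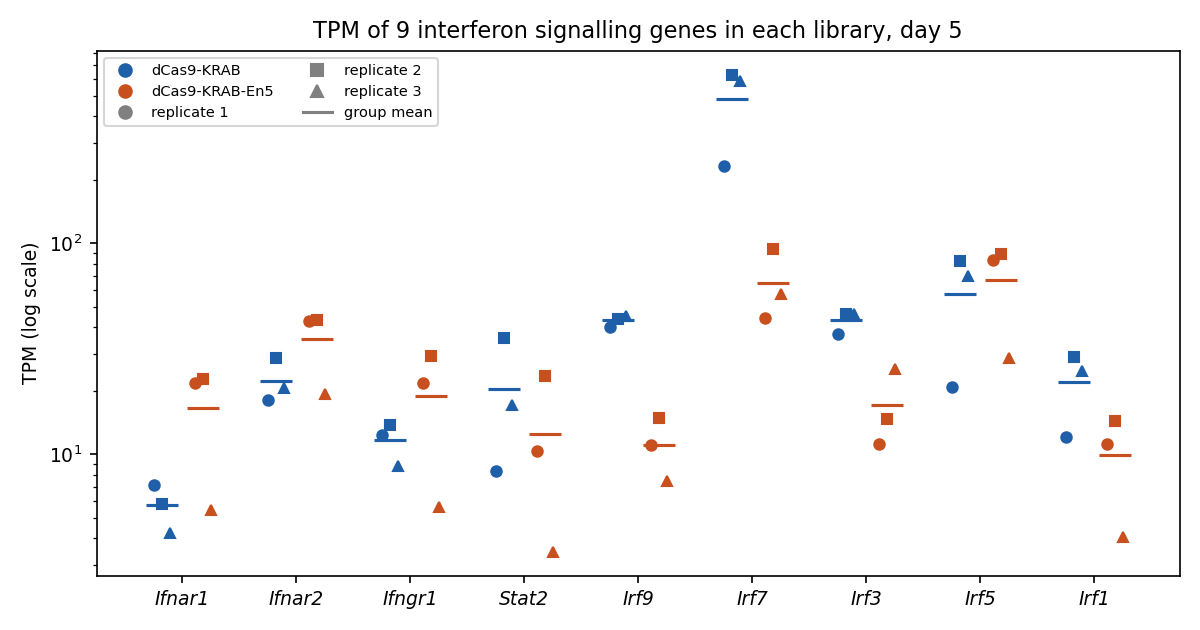
TPM of each of the 9 genes (log axis) in the 6 libraries, with colour for the group, marker shape for the replicate number and a bar for the group mean. *Irf7*, *Irf9* and *Irf3* have no overlap between groups, and dCas9-KRAB-En5 replicate 3 is the lowest of its group for the receptors, *Stat2*, *Irf9*, *Irf5* and *Irf1*.

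The receptor genes lie on the plus strand, *Ifnar1* at 91485238 to 91507441 on chromosome 16, *Ifnar2* at 91372783 to 91405589 on chromosome 16 and *Ifngr1* at 19591949 to 19610229 on chromosome 10. Of them *Ifnar1* had 7.18, 5.85 and 4.27 TPM in the controls and 21.8, 22.8 and 5.48 TPM in the dCas9-KRAB-En5 libraries. Replicates 1 and 2 of dCas9-KRAB-En5 were above all controls and replicate 3 was within their range. The estimate of 1.185 ± 0.442 on the log2 scale (standard error, edgeR adjusted p = 0.0847) was not called. *Ifnar2* had 18.0, 28.5 and 20.6 TPM in dCas9-KRAB and 42.7, 43.5 and 19.3 TPM in dCas9-KRAB-En5, and the log2 fold change was 0.44 ± 0.397 (standard error). *Ifngr1* had 12.4, 13.9 and 8.86 TPM against 21.9, 29.3 and 5.66 TPM, and the log2 fold change was 0.33 ± 0.441 (standard error). Both showed the same split, with dCas9-KRAB-En5 replicates 1 and 2 above every control and replicate 3 not, and neither was called (edgeR adjusted p = 0.469 and 0.636).

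Without the libraries highest in ribosomal protein genes, replicate 1 of the controls and replicate 3 of the dCas9-KRAB-En5 group, 4 of 9 members were called lower, where 22.0% of all genes were, and 1 was called higher, where 20.6% were. The members called lower were *Irf1*, *Irf3*, *Irf7* and *Irf9*, and *Ifnar1* was higher, with a log2 fold change of 1.56. This fit was added after the data were seen and rests on 2 libraries per group.

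**Figure D2:**
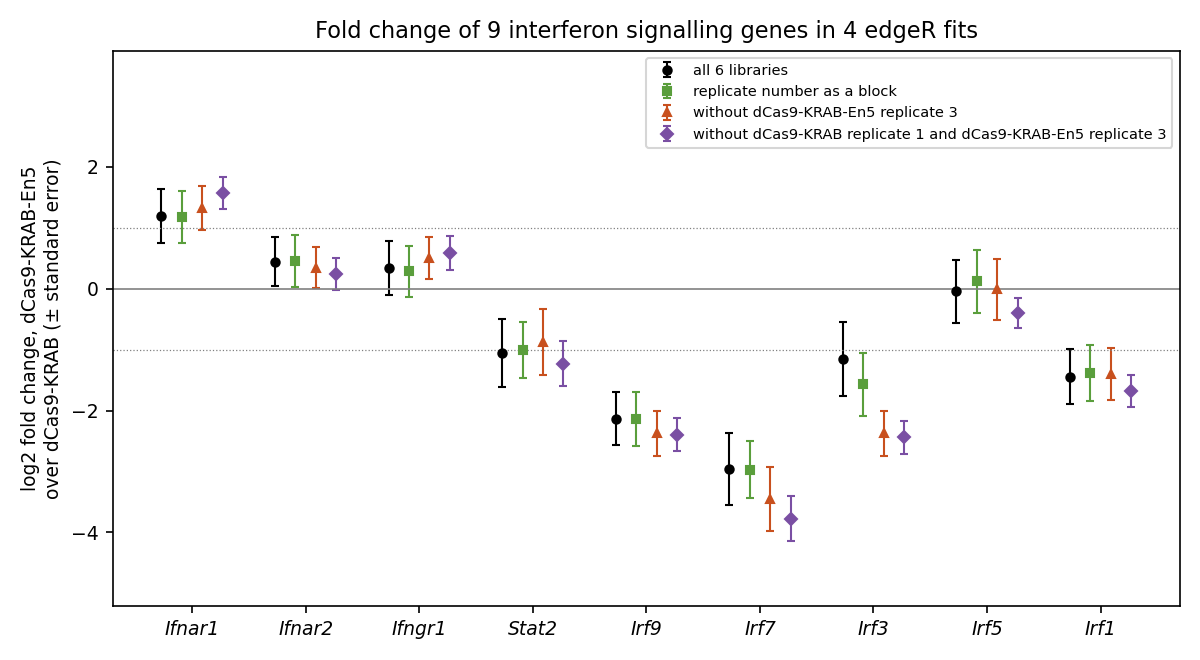
Log2 fold change of each member with its standard error in 4 edgeR fits that differ in the libraries used or in the block. *Irf7* and *Irf9* lie below the dotted line at -1 in every fit shown, *Irf3* moves from -1.16 to -2.37 without dCas9-KRAB-En5 replicate 3, and the receptors lie above 0.

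By length-scaled level, the order in dCas9-KRAB cells was *Irf7*, *Irf5*, *Irf3*, *Irf9*, *Ifnar2*, *Irf1*, *Stat2*, *Ifngr1* and *Ifnar1*, from a mean of 484 to 5.77 TPM. The ranges of neighbours were apart only between *Irf7* and *Irf5*, between *Irf9* and *Ifnar2*, and between *Ifngr1* and *Ifnar1*. In dCas9-KRAB-En5 cells *Irf5* came first, with a mean of 67.0 TPM, and *Irf7* followed with 65.1 TPM. The other members there had means between 9.89 TPM for *Irf1* and 35.2 TPM for *Ifnar2*, and only *Irf7* and *Ifnar2* had ranges apart.

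Ratios of TPM within a library do not depend on how libraries are scaled, and these pairs were picked after the values were seen. *Irf7* over *Irf5* was 11.2, 7.66 and 8.44 in the controls and 0.530, 1.05 and 2.01 in the dCas9-KRAB-En5 libraries. *Irf9* over *Ifnar2* was 2.23, 1.54 and 2.21 against 0.259, 0.341 and 0.388. For both pairs the groups were apart, the libraries with a high ribosomal protein share included. Of the 4 ratios computed, the other two overlapped between groups. *Irf7* over *Irf3* was 6.24, 13.6 and 12.8 in the controls against 3.96, 6.33 and 2.26, and *Irf9* over *Stat2* was 4.80, 1.23 and 2.66 against 1.07, 0.632 and 2.17. *Irf7* made up 67.8% to 76.0% of the summed TPM of the 5 IRF members in dCas9-KRAB and 27.5% to 46.7% in dCas9-KRAB-En5.

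**Figure D3:**
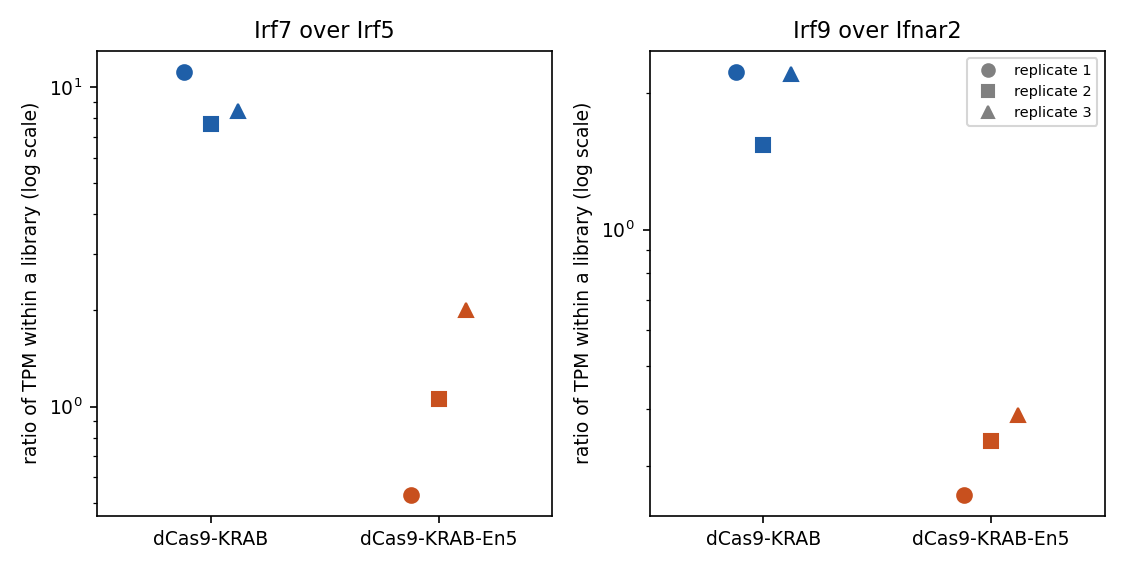
Ratio of TPM within each library (log axis) for *Irf7* over *Irf5* and *Irf9* over *Ifnar2*, by group and replicate number. The lowest dCas9-KRAB ratio of *Irf7* over *Irf5* is 7.66 and the highest dCas9-KRAB-En5 ratio is 2.01.

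Over the 6 libraries, the genes with a pattern of log2 CPM most like that of *Irf7* were *Gm3756*, *Gm5620* and *Lgals9*, with Pearson r of 0.9986, 0.9981 and 0.9977 among the 7655 genes that averaged 10 CPM (counts scaled to library size) or more. For *Irf9* they were *Mtg2*, *Nudt1* and *Bin1*, with r of 0.9995, 0.9959 and 0.9955. With 6 libraries in 2 groups such values are common, and 334 genes had r above 0.95 with *Irf7* and 403 with *Irf9*.

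Of 40 effector genes, all tested, 17 were called lower and 0 higher, where 2 of the 9 members and 4.67% of all genes tested were lower. The effector list was chosen with earlier results of these data known. All 40 effectors had a negative log2 fold change, where 6856 of the 14378 genes tested did. The median was -2.93 against -1.06 over the 9 members and 0.08 over all genes tested. Of the called effectors with the smallest adjusted p, *Ifit3*, an RNA-binding antiviral protein, fell from 156 ± 49.0 to 0.575 ± 0.362 TPM (SD, n = 3), a value that is uncertain where reads are shared with its near-identical copies, and the GTPases *Gbp2* and *Igtp* had log2 fold changes of -5.67 and -4.00. *Oasl2* had -5.25, *Xaf1* had -4.46, and *Isg15*, a ubiquitin-like modifier, had -5.91. *Ifitm3*, a membrane protein that restricts viral entry and the effector with the highest mean over all 6 libraries, had 6514 ± 2467 TPM against 2064 ± 207 TPM and was not called (edgeR adjusted p = 0.0588). The effectors called numbered 7 without dCas9-KRAB replicate 1 and also 7 without dCas9-KRAB replicate 2, where 216 and 305 of all genes were lower. Without dCas9-KRAB replicate 1 *Isg15* was no longer called (edgeR adjusted p = 0.0142), and without dCas9-KRAB-En5 replicate 3 *Ifitm3* was (-2.26, edgeR adjusted p = 0.00161).

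Of 20 nucleic acid sensing genes and kinases, 2 were called lower and 0 higher, where 4.67% and 1.52% of all genes tested were. Their median log2 fold change was -0.17, with 12 estimates below 0 and 8 above 0. Of all genes tested, 6856 lay below 0 and 7522 above. The estimates of the list ran from -4.84 to 2.31. The highest was that of *Aim2*, which was not called (edgeR adjusted p = 0.0188). *Zbp1*, a sensor of Z-form nucleic acid, fell from 77.5, 116 and 106 TPM in the controls to 3.28, 3.19 and 3.75 TPM in the dCas9-KRAB-En5 libraries. *Ifi204*, a DNA sensor of a multigene family, had a log2 fold change of -2.45, and its call was lost without any 1 library other than dCas9-KRAB-En5 replicate 3 (edgeR adjusted p up to 0.0551). *Myd88*, the Toll-like receptor adaptor and the most abundant of the list by its mean over all 6 libraries, had 79.6 ± 19.3 TPM against 48.8 ± 14.6 TPM and was not called.

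The other IRFs, STATs, JAK kinases and receptor chains held 16 genes, 13 of them tested. In edgeR's test 0 were called lower and 0 higher, where 4.67% and 1.52% of all genes tested were. Their median log2 fold change was 0.47. *Irf8*, a myeloid IRF with the highest mean of this list over all 6 libraries, had 32.8 ± 17.1 TPM against 40.5 ± 18.3 TPM.

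Of 12 negative regulators, 1 was called lower and 1 higher, where 4.67% and 1.52% of all genes tested were. Their median log2 fold change was 0.52. *Usp18*, an interferon-induced protease that restrains IFNAR2, fell from 153 ± 53.3 to 23.4 ± 11.4 TPM, with a log2 fold change of -2.91. *Socs3*, a cytokine-induced inhibitor of JAK signalling, rose from 15.1, 65.5 and 58.8 TPM to 1109, 532 and 185 TPM, with a log2 fold change of 3.41. Leaving out dCas9-KRAB replicate 2 or 3 or dCas9-KRAB-En5 replicate 1 ended the call of *Usp18* (edgeR adjusted p up to 0.0194), and leaving out any 1 dCas9-KRAB library ended that of *Socs3* (up to 0.0416). Interferon genes themselves were near or under the floor of detection. Of 11, 8 had no count in any library, and *Ifnb1* had 5, 2 and 13 counts in dCas9-KRAB and 0 in each dCas9-KRAB-En5 library, where 0 counts allow up to 0.0743 to 0.0942 CPM.

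**Figure D4:**
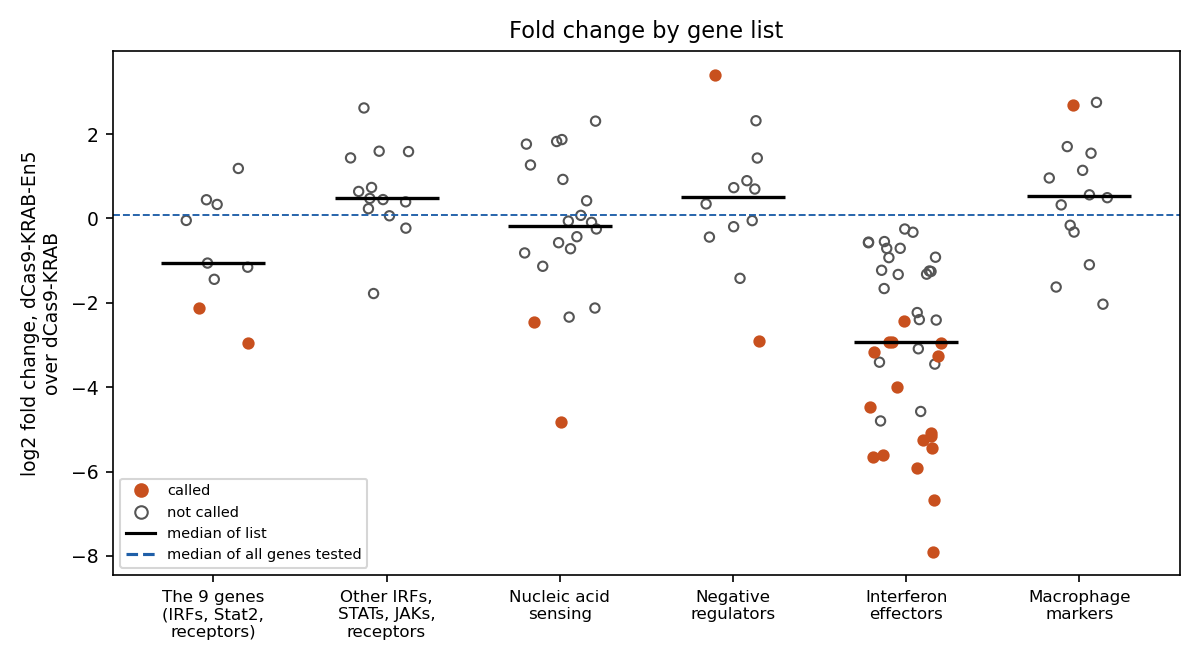
Log2 fold change of each tested gene by list, filled where called, with a bar for the list median and a dashed line for the median of all genes tested (0.08). All 40 effectors lie below 0, while the 9 members span -2.96 to 1.185 and the macrophage markers have a median of 0.53.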

How the data were processed

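RNA-Seq of 6 libraries was used, 3 of dCas9-KRAB and 3 of dCas9-KRAB-En5 cells, grouped by their labels. Per the submitters' processing notes, reads were processed with HISAT2 2.2.1, featureCounts and GRCm38, and the authors deposited raw counts per gene. The annotation release and strand setting are not given in the sources used here. The authors also deposited TPM, whose implied gene lengths lay within 1% of all annotated exons in GENCODE M21 for 98.62% of genes. For *Irf7* these exons cover the whole gene, 3776 bases. Genes absent from a file were taken as 0, and 23155 of 23231 IDs matched a symbol. The deposited counts were tested with edgeR 4.0.16 (TMM, filterByExpr with a minimum count of 10, glmQLFTest, condition alone) in R 4.3.3, with Benjamini-Hochberg adjustment over 14378 genes. The fit was also run on simulated counts with the same spread for every gene and no deviant library. That run does not test the fit under the spread of these data. Standard errors were derived by dividing log2 fold changes by the root of F. Exact permutation of 3 against 3 cannot give a two-sided p below 0.1.

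The members and lists were chosen with earlier results of these data known. Named genes were all members, *Myog*, the called genes of each list (at most 6, by adjusted p), its most abundant gene, and the 3 genes most correlated with a called member. Some markers of cell type were named besides, and *Aim2* as the sensing gene with the highest estimate. Deviations from the group means had r of 0.262, 0.214 and 0.29 for same-numbered replicates and -0.34 to -0.051 for the others. The labels give no pairing and these few weak values cannot establish one, so the blocked fit was run only as an alternative. Other alternatives were DESeq2 1.42.0, other normalizations and filters, limma 3.58.1 on log2 TPM, and leaving out each library. Of other marker lists, 1 of 5 tested fibroblast genes and 11 of 13 muscle genes were called lower, where 4.67% of all genes tested were. No lymphocyte or endothelial gene reached 10 TPM. The floors given for 0 counts cover counting error only.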

Additional observations from a re-analysis of the deposited data

How the results depend on the processing

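Under the replicate block the members called lower stayed at 2 and all genes called higher went to 567. No call of a member changed with this block, where *Irf5* turned to 0.12. All members but *Irf5* kept their direction under every alternative run. *Irf5* was 0.066 with total counts, 0.27 and 0.28 with limma-trend on log2(TPM + 1) and log2(TPM + 0.1), and 0.12 with the ribosomal protein share as covariate, a fit chosen after seeing the data in which 396 genes were called higher. With DESeq2 size factors *Irf7*, at -2.98, missed the cutoff of 0.01 (edgeR adjusted p = 0.010069), and 1 member was called lower. With limma-trend *Irf9*, at -1.91 and -1.997, missed the same cutoff (limma-trend adjusted p = 0.0165 and 0.0158). In these fits 1 member and 1 sensing gene were called lower, and 32 and 66 genes were called higher. Total counts gave 1 sensing gene lower and 70 genes higher. DESeq2 called 1423 genes lower and 967 higher, no low-count filter 1194 and 1004, an adjusted p of at most 0.05 without a fold cutoff 1380 and 1069 (*Irf1* was then called, at -1.44), and at least 10 counts in every library 339 lower.

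Without the pair of libraries highest in ribosomal protein genes, a fit chosen after seeing the data, 4 members were called lower and 1 higher, with *Irf1* at -1.67, *Irf3* at -2.44 and *Ifnar1* at 1.56. Of all genes tested in this fit, 22.0% (3382 genes) were lower and 20.6% (3171 genes) higher. Set beside that share, 5 of the 20 sensing genes listed, 3 of 12 negative regulators and 30 of 40 effectors were lower. Of the 16 other IRFs, STATs, JAKs and receptor chains listed, 1 was lower. *Irf8* was at -0.35. With each library left out in turn, 0 to 3 members, 1 to 3 sensing genes, 0 to 1 negative regulators, 7 to 25 effectors and 216 to 2134 genes were called lower, and 6 to 1787 higher, the most without dCas9-KRAB-En5 replicate 3. *Irf7* ran from -3.45 to -2.65, *Irf9* from -2.38 to -2.005, *Irf3* from -2.37 to -0.79, *Irf5* from -0.495 to 0.17 and *Irf8* from -0.36 to 0.30. The cause of these changes was not tested.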
